A study of Arabidopsis thaliana with 60 samples.

Results

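In auxin-treated Arabidopsis roots, 135 genes lost most of their transcript within 6 h whether or not a stabilised repressor of auxin signalling had been activated under the GATA23 promoter. They were chosen from the measured values. For every gene, L was log2(mean CPM + 1) of a group of 3 libraries, where CPM (the usual scaling of counts to library size) is over the counts assigned to genes. A member had L at least 1.5 lower at 6 h than at 0 h of auxin in the DMSO arm, L at 6 h differing by no more than 0.3 between the DEX and DMSO arms, and at least 5 CPM in DMSO at 0 h, each in both lines. Of 32833 genes counted, 15215 reached 5 CPM, 441 of these were lowered by auxin in this way, and 135 of the 441 met the DEX condition. The DMSO libraries of 0 and 6 h and the DEX libraries of 6 h therefore fixed the members, and their values are given as a description. The tests below compare groups of the other libraries, though the fits behind them also took in the libraries used for the choice.

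The data were gene counts from 60 RNA libraries of lower root segments, in 20 groups of 3, with 12146529 to 94077078 gene counts per library. Of the 2 transgenic lines, shy2-2 (pGATA23::shy2-2-GR) carries stabilised IAA3 and slr-1 (pGATA23::slr-1-GR) stabilised IAA14, both proteins that repress auxin-responsive transcription. Each is fused to the glucocorticoid receptor domain, which keeps it inactive until dexamethasone (DEX) is given, and each was represented by 1 line. GATA23 is active in the pericycle cells that found lateral roots, so most cells of a segment were not meant to carry the active repressor. All seedlings were 4 d old, spent 22 h on 10 µM of the auxin transport inhibitor NPA, and received 10 µM DEX or the solvent DMSO with NPA for a further 2 h. They were then moved to 10 µM of the auxin IAA, with DEX or DMSO. The groups were DEX and DMSO at 0, 1, 2, 4 and 6 h of IAA in each line, and each sample pooled roughly 200 segments. Samples of 1 h carry that time in their titles, while the description of the harvest leaves it out. Every course included IAA, so auxin and elapsed time cannot be told apart, and DEX was given to none but the fusion lines.

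Auxin is perceived by TIR1/AFB receptors, which send Aux/IAA proteins to degradation and so free auxin response factors to act on their target genes. Stabilised Aux/IAA proteins such as shy2-2 and slr-1 escape this degradation and hold those targets repressed in the cells that make them. Auxin also lowers many transcripts, and exogenous auxin in roots is known to slow cell elongation within minutes and to change the growth of the epidermis, where root hairs are formed. RNA from whole segments mixes these tissues, and fewer cells of a type and less RNA per cell cannot be told apart.

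GATA23, an auxin-induced gene whose promoter drives both fusions, was far lower under DEX. It averaged 0.172 ± 0.0521 CPM under DEX and 15 ± 2.21 CPM under DMSO at 4 h in shy2-2 (SD, n = 3 each). In slr-1 it averaged 0.582 ± 0.165 CPM under DEX and 27.7 ± 4.09 CPM under DMSO. Of the 441 lowered genes, 70 were at least 1 log2 unit higher under DEX than under DMSO at 6 h in both lines. These 70, called the kept-up genes here, serve as a comparison. Libraries also differed in photosynthetic RNA. The mean log2(CPM + 1) of 9 photosynthesis genes was 6.82 to 8.29 in 7 libraries and at most 5.84 in the other 53. No gene of that list was a member.

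In DMSO the members' L changed by a median of -2.05 at 6 h in shy2-2, with a range of -4.72 to -1.51, and by a median of -2.16 in slr-1, with a range of -5.06 to -1.5. DEX minus DMSO at 6 h had a median of 0.021 in shy2-2 and 0.060 in slr-1, where the rule holds each value within 0.3. At 0 h the median of this difference was -0.049 in shy2-2 and -0.14 in slr-1. The fall threshold passed between RAB7A, whose weaker line fell by 1.5, and ZIP9, whose value was -1.496. For the DEX window the nearest genes were XTH17 inside and AT2G47540 outside, with differences of 0.2991 and 0.3011 in size. For the CPM floor they were UGT75B2 inside at 5.23 CPM and AT1G61840 outside at 4.36 CPM. Levels per kb of exon in DMSO at 0 h covered 2.91 to 369.6 CPM, with a median of 11.2 CPM.

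The fall was present in the DEX arm, in libraries that had no part in choosing the genes. In shy2-2, 131 of the 135 members were lower at 4 h than at 0 h of IAA under DEX (edgeR quasi-likelihood test, Benjamini-Hochberg adjusted p under 0.05 over all genes), where 11.1% of the 21902 genes tested were lower. In slr-1 all 135 were lower, where 16.3% of the 21864 genes tested were lower. The members' median log2 fold change was -1.83 in shy2-2 and -2.09 in slr-1, while the median over all genes was 0.011 and 0.012 in these lines. Every member had a value below 0 in both lines. The 306 auxin-lowered genes outside the group were lower in 76.1% of cases in shy2-2 and 81.7% in slr-1, and the kept-up genes in 28 and 31 of 70. The 306 include these 70. The sets were separated by their DEX values at 6 h, so their order at 4 h is no independent result. Both shy2-2 groups came from the same sequencing run, as named in the deposited files. In slr-1 the 4 h and 0 h libraries came from different runs, and the part of the run in these values was not tested. Of the 9 photosynthesis genes, 6 were lower at 4 h in slr-1 (median -2.91), and 0 passed in shy2-2 (median -1.02). Their mean log2(CPM + 1) in slr-1 was 3.29 to 5.49 at 4 h and 5.15 to 8.13 at 0 h, and in shy2-2 it was 3.73 to 7.05 at 4 h and 4.93 to 8.29 at 0 h. Without the libraries rich in photosynthetic RNA, 122 members were lower in shy2-2 and 126 in slr-1. The shares of all genes given above are from the fits with all libraries of a line.

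**Figure D1:**
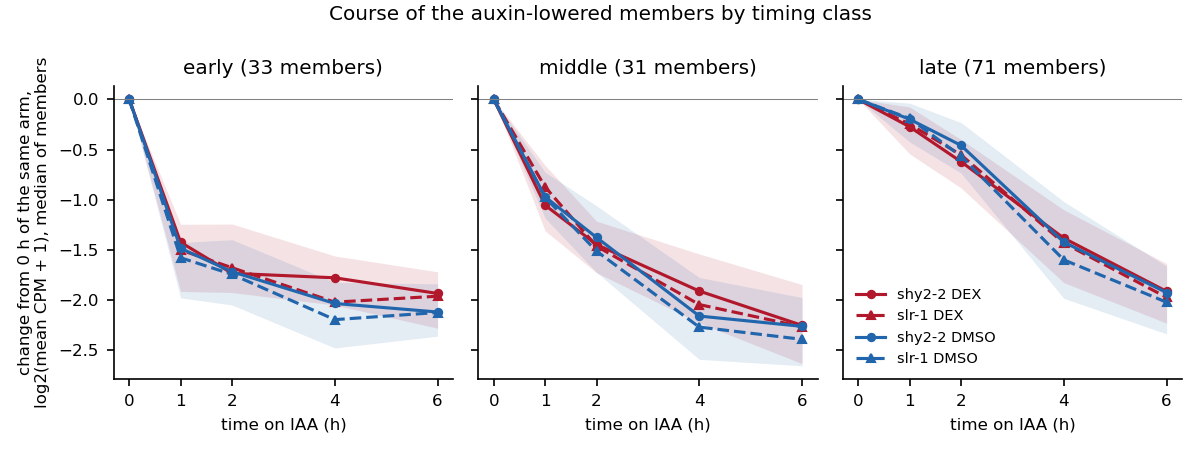
Median change of the members from 0 h of the same arm, in log2(mean CPM + 1) (vertical axis), over 0, 1, 2, 4 and 6 h of IAA (horizontal axis), for the 33 early, 31 middle and 71 late members. Red lines are DEX and blue lines DMSO, circles with solid lines shy2-2 and triangles with dashed lines slr-1, and the bands are the middle quartiles of shy2-2; the medians of both arms run close together in each class, and DMSO at 0 and 6 h and DEX at 6 h were used in the choice.

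By the share of the 6 h fall in DMSO already present at 1 and 2 h, 33 members were early, with at least 0.5 of the fall at 1 h in both lines. Late members, with under 0.5 of it at 2 h in both lines, numbered 71, and the other 31 were called middle. The median member had lost 30.9%, 41.8% and 89.8% of its fall at 1, 2 and 4 h in DMSO of shy2-2. In DEX of the same line, measured from DEX 0 h to DEX 6 h, these shares were 32.1%, 48.6% and 82.1%. In slr-1 they were 29.8%, 48.9% and 87.1% under DEX and 29.0%, 44.8% and 88.6% under DMSO.

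The order of early and late genes was seen in the DEX arm as well. At 1 h against 0 h under DEX, 65 members were lower in shy2-2 (11.5% of all genes tested) and 66 in slr-1 (11.1%). These were 33 of the 33 early members in shy2-2 and 31 in slr-1, 24 and 26 of the 31 middle members, and 8 and 9 of the 71 late members. At 2 h, 91 were lower in shy2-2 (8.46% of all genes tested) and 94 in slr-1 (10.2%). Both lines shared 57 lower members at 1 h, 87 at 2 h and 131 at 4 h. The share of all genes lower in both lines is not given, so nothing is read from these joint counts. Between 1 and 4 h in the DMSO arm, 102 members fell in shy2-2 (12.6% of all genes tested) and 115 in slr-1 (19.9%). Of the 2 comparisons of 1 h with 0 h under DEX, only that in slr-1 lies within a sequencing run. There 8 of the 9 photosynthesis genes were lower too (median -2.85), as were both genes on a list of shoot identity, YAB3 and AFO; in shy2-2 the test called 0 of the 9 (median -1.75) and 0 of the 2. Without the libraries rich in photosynthetic RNA, 60 members were lower at 1 h in shy2-2 and 53 in slr-1, and 86 and 76 at 2 h. Here too the shares of all genes are from the fits with all libraries of a line.

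Members annotated to root hairs were mostly late, with 7 late, 2 middle and 0 early, against 71, 31 and 33 of all members. Root hairs are outgrowths of epidermal cells that extend by tip growth. Of 97 genes with at least 5 CPM whose annotation text mentions root hairs, 9 were members, against 0.887% of all genes at that level. They comprised RSH3, RSH4 and RHS8, named as root hair specific genes; ROPGEF4, an activator of the ROP GTPases that set the site of hair growth; IRE, a protein kinase needed for hair elongation; MRH6, named for root hair morphogenesis; AT5G61350, a receptor-like kinase gene; MES15, a methyl esterase gene; and AT3G43960, a cysteine protease gene. Most of these names were picked after the values had been seen. At 1 h under DEX 2 of the 9, RHS8 and AT3G43960, were already lower in both lines. Among the 108 tested genes with the annotation, 7 were lower and 14 higher at 1 h of DEX in shy2-2. In slr-1, 7 were lower and 11 higher. At 4 h under DEX 8 of the 9 had fallen in shy2-2 and all 9 in slr-1, with median log2 fold changes of -1.08 and -1.37. Of all 108 tested genes with the annotation, 34 were lower and 6 higher at 4 h in shy2-2, and 56 lower and 8 higher in slr-1. In shy2-2 the call of RSH3 (-0.81 ± 0.199, adjusted p = 0.00352) was lost without the libraries rich in photosynthetic RNA (-0.708, adjusted p = 0.0505). In slr-1 that of MRH6 (-0.93 ± 0.320, adjusted p = 0.0278) was lost without them (-1.12, adjusted p = 0.105) and without 0 h replicate 2 or 3 or 4 h replicate 1 or 3 (-0.997 to -0.737, adjusted p = 0.0522 to 0.117). The median share of the DMSO fall in the 9 was 13.8% at 1 h and 57.9% at 4 h, against 29.3% and 88.7% over all members. Other groups had shares as small at 1 h. The medians were 7.64% in wall members outside the pectin group, 11.1% in calcium members, 11.1% in peroxidase members and 12.2% in protein kinase members.

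The 200 bases before the annotated start are shown for 6 of these genes, because each holds a match to the root hair element core, a promoter motif that RSL-type bHLH factors bind in root hair genes. The sequences are from RefSeq on TAIR10.1, read 5′ to 3′ on the strand of the gene, and capitals mark the match, which was searched on both strands. RSH4 lies at chr1:10984863-10985062 (+), RSH3 at chr1:5615608-5615807 (+) and ROPGEF4 at chr2:18883177-18883376 (+). MRH6 lies at chr2:1131920-1132119 (+), AT5G61350 at chr5:24667673-24667872 (+) and MES15 at chr1:26030313-26030512 (-).
RSH4: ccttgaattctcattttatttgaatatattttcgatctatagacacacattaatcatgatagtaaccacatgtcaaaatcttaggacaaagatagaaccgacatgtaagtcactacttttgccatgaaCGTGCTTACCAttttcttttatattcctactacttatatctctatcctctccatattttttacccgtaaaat
RSH3: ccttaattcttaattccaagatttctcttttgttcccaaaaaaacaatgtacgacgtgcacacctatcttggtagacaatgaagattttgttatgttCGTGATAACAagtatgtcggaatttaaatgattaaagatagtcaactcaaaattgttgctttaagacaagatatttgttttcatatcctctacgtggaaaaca
ROPGEF4: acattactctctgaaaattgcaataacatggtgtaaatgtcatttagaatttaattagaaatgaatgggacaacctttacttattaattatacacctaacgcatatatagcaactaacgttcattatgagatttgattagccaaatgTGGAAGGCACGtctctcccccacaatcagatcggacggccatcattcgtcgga
MRH6: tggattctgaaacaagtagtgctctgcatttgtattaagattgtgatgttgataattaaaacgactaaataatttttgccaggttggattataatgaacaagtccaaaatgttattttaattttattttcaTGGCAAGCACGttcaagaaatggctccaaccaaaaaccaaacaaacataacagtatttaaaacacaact
AT5G61350: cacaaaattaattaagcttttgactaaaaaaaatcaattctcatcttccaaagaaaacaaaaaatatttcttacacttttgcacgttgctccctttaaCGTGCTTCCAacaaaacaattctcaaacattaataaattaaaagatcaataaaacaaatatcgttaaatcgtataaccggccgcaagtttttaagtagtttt
MES15: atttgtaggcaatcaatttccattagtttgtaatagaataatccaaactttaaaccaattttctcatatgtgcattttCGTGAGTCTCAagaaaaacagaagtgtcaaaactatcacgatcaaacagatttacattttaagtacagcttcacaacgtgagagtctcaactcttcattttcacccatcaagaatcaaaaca

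A match was present in 6 of the 9 root hair members and in 18 (16.7%) of the 108 root hair genes counted. Over all members it was present in 19 of 135 (14.1%), against 3.36% of the 27437 protein-coding promoters of the same length and 3.56% of those with at least 5 CPM. Of late members 18 (25.4%) held it, of middle members 1 (3.23%), and of the 33 early members 0. Among the other auxin-lowered genes 4.61% held it, and among the kept-up genes 5.80%. The windows of RSH4 and RSH3 also hold the high-affinity auxin response factor site TGTCGG, and that of RSH3 the evening element core AATATCT; neither overlaps the match. The motif was searched for after root hair genes had been seen among the members, and a match is a description of the letters, not of binding.

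The 19 members with a match went down late. Their median share of the DMSO fall was 7.44%, 27.2% and 61.4% at 1, 2 and 4 h, against 32.8%, 47.3% and 91.3% in the 116 others. Under DEX at 1 h, 2 of the 19 were lower in shy2-2 and 1 in slr-1. By 4 h 17 were lower in shy2-2 and 19 in slr-1, with medians of -1.20 and -1.44.

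**Figure D2:**
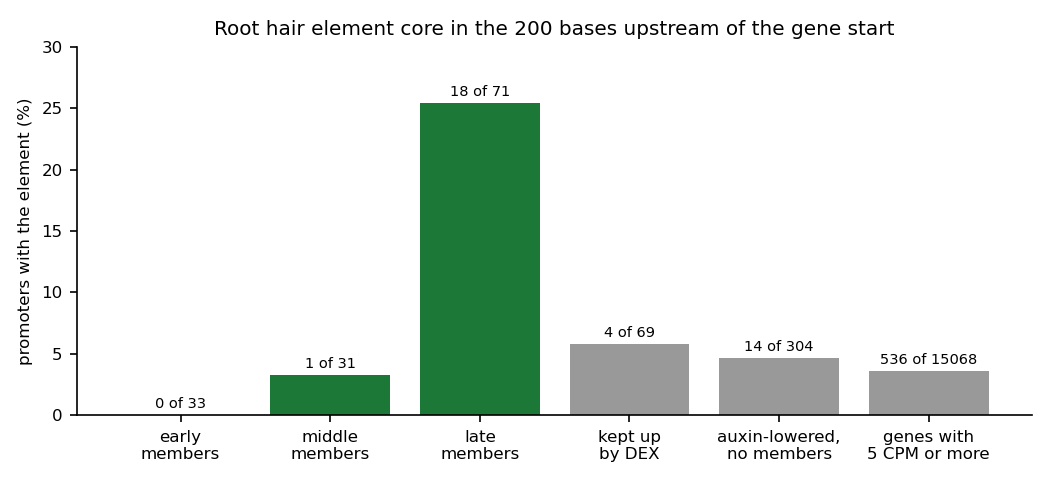
Percent of promoters (200 bases before the start, vertical axis) that hold the root hair element core, for early, middle and late members and for 3 comparison sets, with the number holding it of the number read above each bar. The bar of late members is at 25.4% and that of genes with at least 5 CPM at 3.56%.

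ROPGEF4 shows the late course. In shy2-2 under DEX it had 9.55, 11.7 and 8.19 CPM at 4 h, against 23.9, 20.2 and 18.4 CPM at 0 h. The 4 h libraries were all below the 0 h libraries, and the log2 fold change was -1.07 ± 0.217 (SE, as for all fold changes below; adjusted p = 0.000586). At 1 h it still had 18.4, 17.5 and 20.7 CPM. In slr-1 it had 6.18, 11 and 8.98 CPM at 4 h of DEX, against 17.1, 22.9 and 24.3 CPM at 0 h, again without overlap (-1.32 ± 0.227, adjusted p = 7.48e-05).

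IRE stayed up for the first hour and then went down. Under DEX in shy2-2 it had 20.4, 20.3 and 20.2 CPM at 0 h, 25, 21.7 and 29.4 CPM at 1 h and 8.50, 11.6 and 8.43 CPM at 4 h. The 1 h libraries all lay above the 0 h libraries, a difference that did not pass (0.327 ± 0.2, adjusted p = 0.248), and the 4 h libraries all lay below (-1.08 ± 0.204, adjusted p = 0.000297). RSH4 had 3.92, 4.42 and 4.66 CPM at 4 h of DEX in shy2-2, against 8.20, 7.03 and 7.78 CPM at 0 h. MRH6 did not pass in shy2-2 (-0.987 ± 0.408, adjusted p = 0.0788). Its libraries spread widely there, with 15, 19.4 and 7.21 CPM at 4 h, against 33.1, 27.0 and 23.6 CPM at 0 h.

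Known root hair regulators and wall genes from a separate list of 15 root hair markers were not members. Under DEX at 4 h, 7 of the 15 were lower in shy2-2 and 13 in slr-1, and 0 were higher in either line. RSL4, the bHLH factor that drives hair growth, was lower in both lines (-0.89 ± 0.211, adjusted p = 0.00271, in shy2-2, and -1.02 ± 0.232, adjusted p = 0.00148, in slr-1). EXPA7, a hair-cell expansin, had -0.39 ± 0.186 in shy2-2 (adjusted p = 0.125) and fell in slr-1 (-0.64 ± 0.205, adjusted p = 0.0188). COBL9, PRP1 and RSL2 were among the 441 lowered genes without meeting the DEX condition.

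Cell wall genes were the most numerous. Of 82 genes at 5 CPM whose annotation names pectin enzymes or their inhibitors, 13 were members. Pectin is the gel-forming polysaccharide between wall fibres, and methylesterases, their inhibitors and lyases change how stiff it is. All 13 had fallen under DEX at 4 h in both lines, with medians of -2.30 in shy2-2 and -2.43 in slr-1. Over the whole annotation, 38 of 119 tested genes were lower and 20 higher in shy2-2, and 42 of 120 were lower and 25 higher in slr-1.

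AT1G05650, a pectin lyase-like gene, was nearly gone after 1 h. Under DEX in shy2-2 it had 0.202, 0.167 and 0.136 CPM at 1 h, against 6.76, 13.4 and 10.3 CPM at 0 h. In slr-1 it had 0.181, 0.0379 and 0.289 CPM at 1 h, against 10.6, 8.59 and 9.38 CPM at 0 h. The log2 fold changes were -5.88 ± 0.501 (adjusted p = 3.5e-09) and -5.80 ± 0.464 (adjusted p = 2.4e-08). At 4 h of DEX in slr-1 it had 0 counts in all 3 libraries and was at least 336.5-fold lower than at 0 h, taking 3 counts over the group as the floor. Its neighbour AT1G05660 took longer, with 6.54, 3.93 and 5.25 CPM at 1 h of DEX, against 24.3, 29.0 and 20.1 CPM at 0 h in shy2-2. It had 0, 0.228 and 0.611 CPM there at 4 h. The 2 genes adjoin and are alike, and reads that map to several places were not counted, so their separate values are uncertain.

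AT4G25250, which encodes a putative pectin methylesterase inhibitor, had 9.30, 8.44 and 3.91 CPM at 0 h, 0.951, 0.418 and 0.591 CPM at 1 h and 0.0388, 0.350 and 0.0678 CPM at 4 h of DEX in shy2-2. All libraries after 0 h were below all at 0 h, and the change was -3.43 ± 0.701 at 1 h and -5.33 ± 0.808 at 4 h (adjusted p = 0.000631 and 2.25e-05). Over 10% of the reads lay on the opposite strand in 14 of the 135 members, and the extreme case was AT2G43890. Of its reads, 85.2% lay on the opposite strand, the only member above 50%, and with both strands summed its fall of 5.29 in shy2-2 became 0.0892 (adjusted p = 0.874), and its fall of 6.91 in slr-1 became -0.284 (adjusted p = 0.406).

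Of 148 genes annotated to other wall polysaccharides or wall proteins, 8 were members, 6 of them late and 0 early. All 8 had fallen under DEX at 4 h in both lines, with medians of -1.96 in shy2-2 and -1.82 in slr-1. Across the tested genes with this annotation, 65 of 196 were lower and 13 higher in shy2-2, and 93 of 193 lower and 15 higher in slr-1. GXM2, which adds methyl groups to xylan, had 6.02, 8.92 and 6.76 CPM at 4 h of DEX in shy2-2, against 39.1, 32.5 and 24.2 CPM at 0 h (-2.12 ± 0.286, adjusted p = 4.63e-06). The extensin-like gene AT3G28550 had 306, 578 and 236 CPM at 4 h, against 934, 924 and 720 CPM at 0 h, and the groups did not overlap (-1.19 ± 0.329, adjusted p = 0.00912).

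XTH17 and FUT4 were above their 0 h level at 1 h before they went down. XTH17 encodes an enzyme that cuts and rejoins xyloglucan chains. Under DEX in slr-1 it had 10.7, 23.9 and 32.1 CPM at 0 h, 49.5, 26.3 and 57.9 CPM at 1 h and 0.425, 0.295 and 0.228 CPM at 4 h. The 1 h and 0 h groups overlapped, and the rise (1.03 ± 0.371, adjusted p = 0.0468) was lost without the libraries rich in photosynthetic RNA (0.489, adjusted p = 0.705). It was also lost without 0 h replicate 1 or 2 or 1 h replicate 1 or 3 (0.69 to 1.04, adjusted p = 0.105 to 0.234). In shy2-2 it had 33.3, 16.5 and 12.3 CPM at 0 h, 46.1, 40.1 and 71.3 CPM at 1 h and 0.311, 1.02 and 0.430 CPM at 4 h of DEX, and the 1 h value did not pass (1.35 ± 0.543, adjusted p = 0.0698). Its fall at 4 h was among the largest (-5.01 ± 0.688, adjusted p = 7.24e-06, in shy2-2, and -6.20 ± 0.539, adjusted p = 4.61e-09, in slr-1).

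FUT4, a fucosyltransferase gene whose product acts on arabinogalactan proteins, had 49.2, 48.2 and 57.6 CPM at 1 h of DEX in shy2-2, against 44.1, 32.4 and 33.6 CPM at 0 h. The slr-1 libraries had 61.8, 56.2 and 63.6 CPM at 1 h, against 40.5, 42.7 and 49.8 CPM at 0 h. The groups did not overlap in either line, and the rises passed (0.50 ± 0.147, adjusted p = 0.0125, and 0.47 ± 0.115, adjusted p = 0.00317). Both lost the call without the libraries rich in photosynthetic RNA (0.393, adjusted p = 0.086, in shy2-2, and 0.303, adjusted p = 0.319, in slr-1). In shy2-2 the rise was also lost when 0 h replicate 2 or 3 or 1 h replicate 3 was left out (0.394 to 0.436, adjusted p = 0.0635 to 0.105). FUT4 was the 1 member that rose at 1 h in shy2-2, and FUT4 and XTH17 were the 2 that rose in slr-1, where 15.4% and 13% of all genes tested rose. AGP30, an arabinogalactan protein gene, was also among the smallest shares at 1 h.

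**Figure D3:**
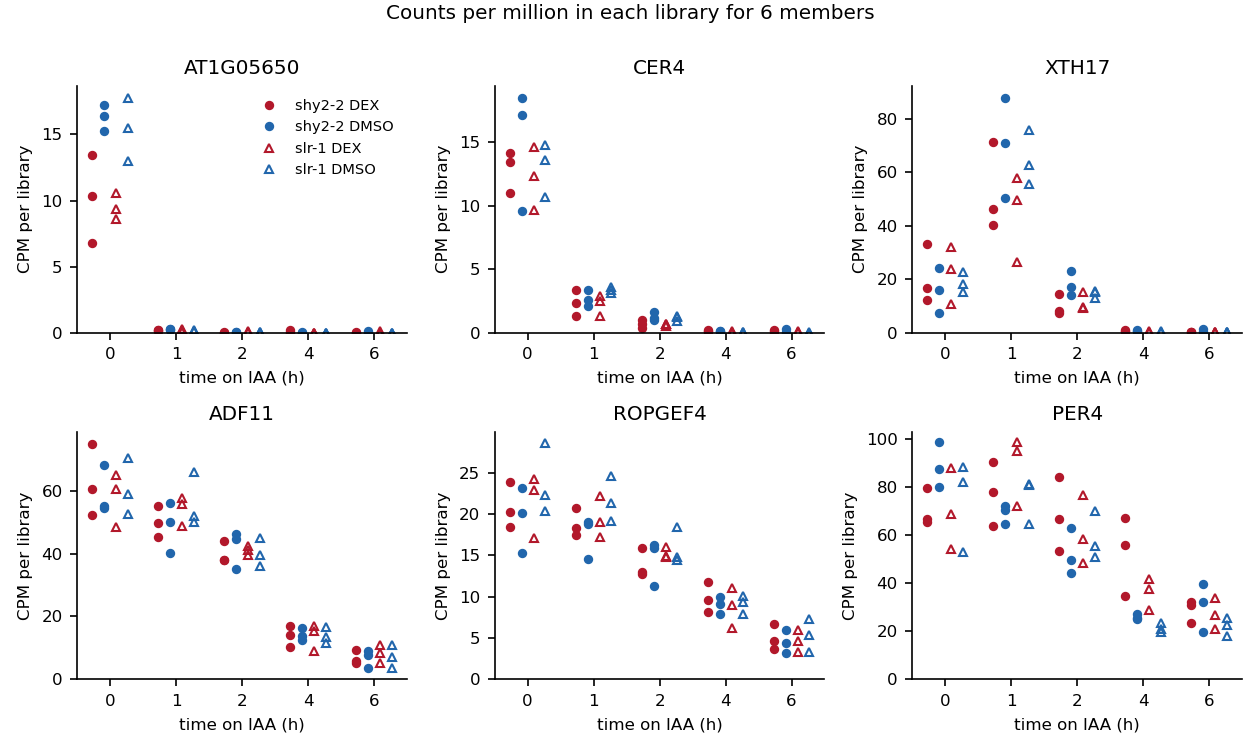
CPM in each library (points, linear axis from 0) of AT1G05650, CER4, XTH17, ADF11, ROPGEF4 and PER4 at 0, 1, 2, 4 and 6 h of IAA; red is DEX and blue DMSO, filled circles are shy2-2 and open triangles slr-1. AT1G05650 and CER4 are low from 1 h on, XTH17 is highest at 1 h, and ADF11 and ROPGEF4 go down later; PER4 under DEX lies above DMSO at 4 h.

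Genes of very long lipids held some of the deepest falls. CER4 encodes a reductase that makes the primary alcohols of waxes, and KCS5 an enzyme that lengthens fatty acids for waxes. Of 17 genes at 5 CPM annotated to this chemistry 5 were members, and all 5 had fallen under DEX at 4 h in both lines, with medians of -2.72 in shy2-2 and -3.79 in slr-1. Over the whole annotation, 6 of 27 tested genes were lower and 5 higher in shy2-2, with a median of -0.0662, and 9 of 28 were lower and 2 higher in slr-1, with a median of -1.01. CER4 had 0.0776, 0.158 and 0.181 CPM at 4 h of DEX in shy2-2, against 14.2, 13.4 and 11 CPM at 0 h (-6.41 ± 0.590, adjusted p = 1.67e-08). It had already dropped at 1 h, to 2.35, 1.28 and 3.38 CPM. AT3G06460, annotated as a fatty acid elongase of the GNS1/SUR4 type, had 0.427, 2.23 and 0.769 CPM at 4 h, against 18.8, 21.3 and 16.6 CPM at 0 h (-3.95 ± 0.489, adjusted p = 1.48e-06).

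KCS5 was early. Under DEX in shy2-2 it had 7.96, 9.15 and 5.02 CPM at 0 h, 2.43, 2.06 and 2.16 CPM at 1 h and 0.971, 1.07 and 2.24 CPM at 4 h. In slr-1 it had 10.4, 9.50 and 9.59 CPM at 0 h, 3.16, 2.14 and 3.21 CPM at 1 h and 0.656, 0.615 and 0.885 CPM at 4 h. No library after 0 h reached the 0 h range in either line.

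A further 5 members were annotated to prenyl chain synthesis, of 20 such genes at 5 CPM, and none was late. CPT, a cis-prenyltransferase of the kind that builds the carrier lipid dolichol, had 4.78, 5.36 and 6.42 CPM at 4 h of DEX in shy2-2, against 13.7, 17.1 and 18.5 CPM at 0 h (-1.57 ± 0.178, adjusted p = 4.01e-07). All 5 had fallen in both lines at 4 h under DEX, as had nearly all members, with medians of -1.72 in shy2-2 and -2.03 in slr-1. Across the tested genes with this annotation, 16 of 31 were lower and 2 higher in shy2-2, and 17 of 32 lower and 3 higher in slr-1.

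Small auxin-response genes of the SAUR family are best known for rising with auxin and for promoting cell expansion. Of 20 SAUR genes at 5 CPM, 5 were lowered and 4 of these were members, 2 early and 2 middle. The family was split under DEX at 4 h. In shy2-2, 11 of 58 tested SAUR genes were lower and 10 higher, and in slr-1 13 of 54 were lower and 15 higher. AT4G34810 had 9.60, 11.1 and 13.7 CPM at 0 h, 2.83, 2.96 and 2.2 CPM at 1 h and 2.76, 2.61 and 2.56 CPM at 4 h of DEX in shy2-2. In slr-1 it had 1.98, 2.35 and 2.24 CPM at 1 h, against 9.83, 14.8 and 13 CPM at 0 h. The whole fall was present at 1 h in both lines (-2.09 ± 0.262, adjusted p = 1.38e-06, in shy2-2, and -2.49 ± 0.294, adjusted p = 5.27e-07, in slr-1), and the 4 h level was like the 1 h level. It adjoins AT4G34800, another member of the family, and the pair is subject to the same doubt about shared reads.

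Of 64 genes at 5 CPM annotated to a C1 domain, a zinc-binding fold, 3 were members. All 3 were early, against 33 of all 135 members. Across the tested genes with this annotation, 54 of 130 were lower and 11 higher under DEX at 4 h in shy2-2. In slr-1, 65 of 132 were lower and 7 higher. AT5G17960 had 1.25, 0.809 and 0.409 CPM at 1 h of DEX in shy2-2, against 6.56, 10.5 and 10.8 CPM at 0 h (-3.48 ± 0.446, adjusted p = 2.01e-06). Of 8 DUF247 genes at 5 CPM, 3 were members, and these 3, AT3G50130, AT3G50140 and AT3G50150, lie side by side on chromosome 3. The doubt about shared reads applies to this run too. Under DEX at 4 h, 7 of 20 tested DUF247 genes were lower and 3 higher in shy2-2. In slr-1, 8 of 20 were lower and 4 higher. AT3G50150 had 0.194, 0.526 and 1.08 CPM at 4 h of DEX in shy2-2, against 4.57, 6.75 and 7.02 CPM at 0 h. The largest shares at 1 h belonged to AT3G15115, AT5G54585, AT4G26288 and ROXY2, whose level at 1 h in DMSO was already at about the 6 h level.

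Aquaporins, the water channels of the plasma membrane and the vacuole, held 3 members. Of 26 tested genes annotated as aquaporins, 16 were lower and 4 higher under DEX at 4 h in shy2-2, and 16 lower and 5 higher in slr-1. Of 19 aquaporin genes on a list fixed with earlier results known, 17 were lower and 1 higher under DEX at 4 h in each line; the 1 that was higher was PIP2;6 (1.44 in shy2-2 and 0.84 in slr-1). Of the 13 that auxin lowered, 3 met the DEX condition and 1 was kept up. TIP2;2, a vacuolar channel, was the member with the highest level per kb, and had 205, 180 and 176 CPM at 4 h of DEX in shy2-2, against 513, 493 and 624 CPM at 0 h (-1.53 ± 0.180, adjusted p = 6.72e-07). Its slr-1 values were 118, 80.3 and 99.6 CPM at 4 h, against 405, 396 and 430 CPM at 0 h (-2.07 ± 0.192, adjusted p = 8.66e-09).

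The plasma membrane channel PIP3, also known as PIP2;7, was early. It had 206, 183 and 149 CPM at 1 h of DEX in shy2-2, against 464, 477 and 463 CPM at 0 h (-1.37 ± 0.185, adjusted p = 3.93e-06). TIP4;1 was late, with 62.1, 58.2 and 42.6 CPM at 0 h, 41.7, 32.0 and 40.6 CPM at 1 h and 11.1, 17.3 and 15.8 CPM at 4 h of DEX in shy2-2. All 3 channels were lower at 4 h than at 0 h of DEX in both lines, as were 16 of the 26 tested genes annotated as aquaporins.

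Late members made up 3 of the 5 cytoskeleton genes and 4 of the 5 calcium signalling genes, against 71 of all 135. Over the whole annotations under DEX at 4 h, 26 of 103 cytoskeleton genes were lower and 8 higher in shy2-2, and 28 of 103 were lower and 10 higher in slr-1. Of the calcium genes, 33 of 235 were lower and 65 higher in shy2-2, and 51 of 236 were lower and 60 higher in slr-1. ADF11, which severs actin filaments, had 75.1, 60.5 and 52.3 CPM at 0 h, 49.7, 45.2 and 55.2 CPM at 1 h and 14.1, 16.8 and 10.3 CPM at 4 h of DEX in shy2-2. The 4 h libraries were far below the others (-2.17 ± 0.250, adjusted p = 4.97e-07). ADF11, ACT11, TUB1, MAP70-5 and SP1L4 were the 5 cytoskeleton members, and all 5 had fallen in both lines, with medians of -2.01 in shy2-2 and -1.93 in slr-1. TUB1, a beta-tubulin gene, had 16.0, 32.7 and 19.1 CPM at 4 h of DEX in shy2-2, against 122, 95.7 and 55.7 CPM at 0 h. Among 5 calcium members, ACA9, a plasma membrane calcium pump known from pollen tube growth, had 10.4, 13.3 and 8.50 CPM at 4 h, against 40.2, 36.9 and 28.8 CPM at 0 h (-1.70 ± 0.308, adjusted p = 0.000194).

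AT3G59370, annotated as a vacuolar calcium-binding protein, had 28.6, 27.2 and 27.9 CPM at 0 h, 22.8, 16.9 and 16.9 CPM at 1 h and 1.17, 1.65 and 1.20 CPM at 4 h of DEX in shy2-2. Most of its fall thus came after the first hour. All 5 protein kinase members were late, and 539 kinase genes reached 5 CPM, of which 0.928% were members, against 0.887% of all genes.

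**Figure D4:**
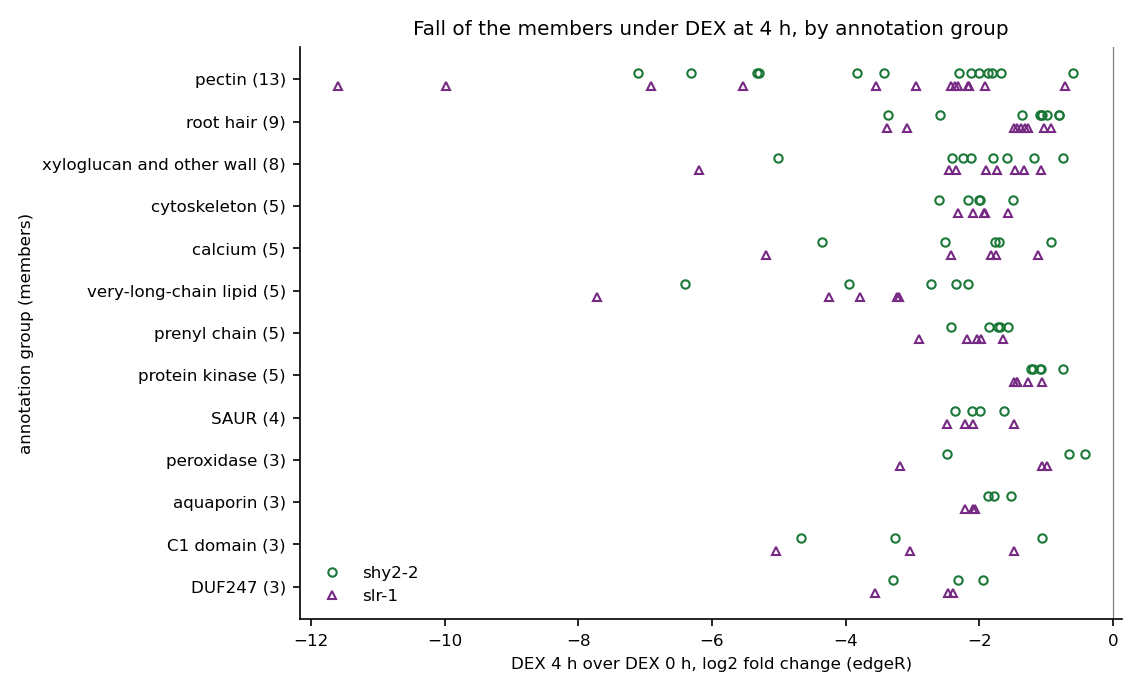
Log2 fold change of each member at 4 h against 0 h under DEX (horizontal axis, edgeR) by annotation group (rows, number of members in brackets), shy2-2 as circles and slr-1 as triangles. All points lie below 0; the 2 leftmost triangles, AT1G05650 with 0 counts and AT1G05660 with 2 counts over the slr-1 libraries at 4 h, are fitted values and mark no measured size.

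Of the members, 66 were in none of these groups. AT1G19900, annotated as related to glyoxal oxidase, had 0.815, 1.03 and 0.769 CPM at 4 h of DEX in shy2-2, against 37.0, 28.2 and 22.9 CPM at 0 h (-5.04 ± 0.364, adjusted p = 4.4e-10). AT5G44020, an acid phosphatase gene, had 105, 110 and 130 CPM at 4 h, against 396, 415 and 418 CPM at 0 h (-1.83 ± 0.131, adjusted p = 3.65e-10). SULTR1;1, a high-affinity sulfate importer of the root surface, was the 1 member from a list of nutrient transporters, of which 5 were lower and 3 higher at 4 h in shy2-2. It had 7.53, 10.9 and 4.70 CPM at 4 h of DEX in shy2-2, against 22.9, 17.3 and 14.2 CPM at 0 h (-1.21 ± 0.433, adjusted p = 0.0414).

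CYP71B2, a cytochrome P450 gene, reached its low level by 1 h. It had 136, 149 and 257 CPM at 0 h, 59.6, 96.8 and 49.7 CPM at 1 h and 97.0, 56.8 and 74.2 CPM at 4 h of DEX in shy2-2. Members from lists of endodermis, xylem, phloem, root cap, suberin and clock genes numbered 0. These lists held only 11, 8, 6, 3, 3 and 12 genes at 5 CPM. Of all genes at that level 0.887% were members, so nothing is read from this 0.

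In shy2-2 the 4 members that did not pass at 4 h of DEX were PER4, MRH6, CRD1 and PCK2. PCK2, an enzyme of sugar formation from lipid, had 38.4, 21.5 and 87.8 CPM at 4 h, against 95.2, 144 and 180 CPM at 0 h (-1.52 ± 0.588, adjusted p = 0.0607). CRD1, an enzyme of chlorophyll synthesis, had 15.6, 11.2 and 41.1 CPM at 4 h, against 31.5, 110 and 38.6 CPM at 0 h (-1.40 ± 0.546, adjusted p = 0.0617). The highest values of both CRD1 groups were from libraries rich in photosynthetic RNA. CRD1 had 41.1 to 110 CPM in the 7 such libraries and 3.71 to 38.6 CPM in the other 53. Without them, and with DESeq2, both passed in shy2-2; without them the values were -2.23 (adjusted p = 0.0341) for PCK2 and -1.41 (adjusted p = 0.00254) for CRD1.

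DEX and DMSO were then compared at 1, 2 and 4 h, times that the choice of members did not use. At 1 h, 0 members differed in shy2-2 by edgeR, where 0.219% of all genes tested did; 0 had an unadjusted p under 0.05, and DESeq2 called 0. In slr-1 also 0 differed, where 0.585% of all genes did; 2 had an unadjusted p under 0.05, and DESeq2 called 0. At 2 h, 0 differed in shy2-2, where 0.594% of all genes did, with 8 at an unadjusted p under 0.05 and 0 by DESeq2. In slr-1 0 differed at 2 h, where 1.57% of all genes did, with 5 at an unadjusted p under 0.05 and 1 by DESeq2. The share of all genes at an unadjusted p under 0.05 is not given here or below. Nothing is read from counts of members at that threshold. A difference that does not pass is no proof of equality. The 95% interval of DEX minus DMSO lay within 1 log2 unit of 0 for 108 members (80%) in shy2-2 at 1 h and 98 (72.6%) at 2 h, against 82.2% and 80.5% of all genes tested. In slr-1 it did so for 109 members (80.7%) at 1 h and 111 (82.2%) at 2 h, against 83.6% and 82.1% of all genes. The members' shares were thus near or under those of all genes, and nothing is read from them about the members.

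At 4 h, 2 members were higher under DEX in shy2-2 and 0 lower, where 2.47% of all genes were higher and 8.38% lower. In slr-1, 1 member was higher and 0 lower, where 5.83% of all genes were higher and 12% lower. The count in shy2-2 was 0 without DEX replicate 3 and 5 without DEX replicate 1, and that in slr-1 was 0 without DEX replicate 3 and 2 without DMSO replicate 2. The members' median difference was 0.18 in shy2-2 and 0.024 in slr-1, with 85 members (63%) and 96 members (71.1%) within 0.3 of 0. Of all genes tested, 65% in shy2-2 and 63.1% in slr-1 were as close to 0. An unadjusted p under 0.05 was seen for 17 members in shy2-2 and 6 in slr-1, with no share of all genes to set beside these counts. The 95% interval lay within 1 of 0 for 65.2% of the members in shy2-2 and 75.6% in slr-1, against 74.4% and 75% of all genes. AT1G05650 had 0 counts in both slr-1 groups, so its counting as close to 0 there rests on no reads. In the kept-up genes 56 and 66 of 70 were higher at 4 h, with medians of 1.26 and 2.36, and 6 and 16 were higher at 1 h. In shy2-2 the DEX and DMSO libraries shared a sequencing run only at 1 h, and in slr-1 at no time, so elsewhere the run and the treatment cannot be told apart. The DMSO samples of a time enter the members' and the kept-up genes' values alike.

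**Figure D5:**
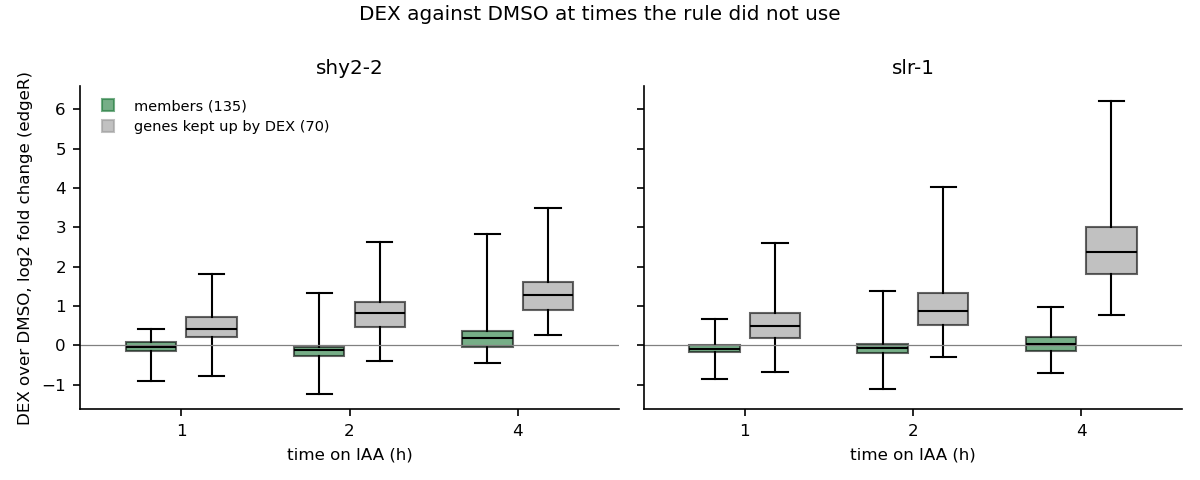
Log2 fold change of DEX over DMSO (vertical axis, edgeR) at 1, 2 and 4 h of IAA for the 135 members (green) and the 70 kept-up genes (grey), in shy2-2 and slr-1; boxes are quartiles with the median, and whiskers reach the lowest and highest gene. The members' medians lie between -0.132 and 0.18, those of the kept-up genes reach 1.26 in shy2-2 and 2.36 in slr-1 at 4 h, and both sets were chosen on this difference at 6 h.

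PER4, a class III peroxidase gene, passed in both lines. In shy2-2 it had 56.0, 34.6 and 67.2 CPM under DEX at 4 h, against 25.2, 25.5 and 27.1 CPM under DMSO (0.99 ± 0.235, adjusted p = 0.00644). In slr-1 it had 37.5, 28.8 and 41.7 CPM under DEX, against 19.8, 23.2 and 20.8 CPM under DMSO (0.74 ± 0.235, adjusted p = 0.0302). The groups did not overlap in either line. The shy2-2 call was lost without DEX replicate 3 (0.792, adjusted p = 0.0562) or without the libraries rich in photosynthetic RNA (0.809, adjusted p = 0.0594). The slr-1 call was lost without DEX replicate 1 or 3 or DMSO replicate 1 or 3 (0.61 to 0.726, adjusted p = 0.0755 to 0.128). By 6 h, where the rule held both arms close, PER4 had 30.9, 23.5 and 32.2 CPM under DEX and 39.5, 19.5 and 32.4 CPM under DMSO in shy2-2.

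CYCP4;1, a P-type cyclin gene, was the other in shy2-2. It had 2.21, 2.87 and 2.62 CPM under DEX at 4 h, against 1.63, 1.79 and 1.72 CPM under DMSO, without overlap (0.57 ± 0.164, adjusted p = 0.0256). That call was lost in 5 of the 6 fits that left out a library (0.488 to 0.618, adjusted p = 0.0621 to 0.107). Libraries of slr-1 held 1.00, 2.36 and 2.05 CPM under DEX, against 1.69, 0.940 and 1.55 CPM under DMSO (0.36 ± 0.277, adjusted p = 0.443). Most of its fall had come at 1 h in both arms, to 2.1, 1.90 and 2.09 CPM under DEX and 2.26, 2.53 and 2.04 CPM under DMSO in shy2-2.

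Members were also compared between the lines. In a fit of all 60 libraries with 22268 genes tested, 0 members differed between shy2-2 and slr-1 in the change from 0 to 4 h under DEX, where 0.00898% of all genes did; 10 had an unadjusted p under 0.05, and DESeq2 called 0. The median difference was 0.21 log2 units, the fall being smaller in shy2-2. The lowest unadjusted p belonged to KCS5 (1.43 ± 0.432, adjusted p = 1), AT3G20160 and AT3G49190, each with a smaller fall in shy2-2.

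The members were short and of simple structure compared with all genes at 5 CPM. Their median exon length was 1560 bases against 1862, and 20.7% had a single exon against 10.1%. No such values are given for the other auxin-lowered genes, so these traits are not called particular to the members. Of the 135, 11 adjoined another member (8.15%), against 10.9% of the 441 lowered genes and 8.57% of the kept-up genes. These were the pairs or runs AT1G05650 and AT1G05660, AT3G50130 to AT3G50150, AT4G25250 and AT4G25260, AT4G34800 and AT4G34810, and AT5G51490 and AT5G51500. Each holds genes with the same annotation, so the doubt about shared reads applies to all of them.

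Other motifs were counted in the same windows. The auxin response element TGTCTC was present in 9 (6.67%) of the members' 200-base promoters, against 8.94% of all, and TGTCGG in 3 (2.22%), against 3.43%. Among early members TGTCTC stood in 5 of 33 (15.2%). GATAAG, a core bound by GATA factors, was present in 17 members (12.6%) against 9.96% of all, in 9 early members (27.3%) and in 4 late ones (5.63%). The evening element core AATATCT, known from clock-controlled genes, was present in 18 members (13.3%) against 8.11% of all, with 14 of these late (19.7% of late members). The G-box CACGTG was in 4.44% against 5.64%, the W-box core TTGACC in 8.15% against 10.4%, and the TCP core GGNCCC in 2.96% against 6.45%. All were searched on both strands, and each share describes letters only.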

How the data were processed

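RNA-seq gene counts of 60 libraries were used as deposited. Per the submitters' processing notes, the authors aligned reads with STAR 2.5.2b to TAIR10 and used DESeq2. The counts deposited are STAR's per-gene tables, and the column of the reverse strand was taken, which held 93.6 to 96.4% of the gene counts of both strands. Rows naming no gene, 5.58 to 11.9% of each library, were left out of totals and tests. Reads mapping to several places are not counted in such tables.

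Counts were tested with edgeR 4.0.16 (quasi-likelihood, robust, TMM, filterByExpr; limma 3.58.1, R 4.3.3) over the 30 libraries of a line, or all 60 for the line difference. Adjusted p-values are Benjamini-Hochberg over all genes tested, with a threshold of 0.05. The edgeR standard errors are the size of the log2 fold change divided by the square root of the test's F statistic, and the intervals rest on them. DESeq2 1.42.0 was an alternative. The tests were tried on simulated data with known changes. CPM and shares were computed with Python 3.11.15. The labels do not say whether replicates were separate cultures, so the p-values speak only to the variation among these libraries, part or all of which could be technical. No replicate pair agreed within sampling noise (lowest chi-square per degree of freedom 14.9).

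Same-numbered replicates were checked for pairing in 14 comparisons. Only in DEX against DMSO at 4 h in shy2-2 were all 3 correlations of deviations above 0.1 (0.262, 0.789 and 0.782). There the fit with the replicate block called 3 members, against 2 without it.

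The members and the gene lists were chosen with earlier results of these data known, and the annotation groups and the root hair motif after the members had been seen. Genes were named by rule: the 15 lowest in DMSO, up to 8 per list or family, the 6 largest and 6 smallest shares at 1 h, the 3 on each side of a threshold, up to 5 called per DEX comparison or line difference, neighbours, and up to 5 not lower under DEX at 4 h. Other members named for the annotation groups were chosen after their values were seen. Promoters are the 200 bases before the gene start in RefSeq TAIR10.1, whose 5 chromosomes match the lengths used here. Alternatives were other scalings, filters, strands, sample sets, thresholds, and each replicate left out.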

Additional observations from a re-analysis of the deposited data

How the results depend on the processing

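The number of members depended most on the thresholds. It was 86 with a DEX window of 0.2 and 208 with 0.5, 312 with a fall of at least 1 and 65 with a fall of at least 2, and 107 to 152 when 1 library was left out. The genes changed as well: with 1 library left out, 91 to 134 of the 135 were kept, and the lowest, 91 of 116, was without shy2-2 DMSO 6 h replicate 2. With a pseudocount of 2, 98 of the 135 were among 121 members. Counts of members lower under DEX stayed within 1.5 times their values under every alternative run. With 1 library left out they were 123 to 130 at 4 h, 71 to 88 at 2 h and 52 to 63 at 1 h in shy2-2, and 129 to 135, 83 to 92 and 60 to 63 in slr-1. From 1 to 4 h in DMSO they were 90 to 104 in shy2-2 and 103 to 112 in slr-1. DEX against DMSO called 0 members at 1 and 2 h in both lines, and the line difference 0, in every such fit. At 4 h in shy2-2 it called 0 members without the libraries rich in photosynthetic RNA, 5 with DESeq2, 1 with only the compared groups fitted, and 0 to 5 with 1 library left out. In slr-1 it called 1 at 2 h without those libraries and 1 with DESeq2. At 4 h in slr-1 it called 2 with both strands summed, 2 with DESeq2, 2 with only the compared groups, and 0 to 2 with 1 library left out. AT2G43890 reversed in shy2-2 with both strands summed (0.0892). The causes were not tested. With the replicate block the counts lower under DEX at 4, 2 and 1 h were 133, 94 and 66 in shy2-2 and 134, 92 and 66 in slr-1, and DEX against DMSO at 1, 2 and 4 h gave 0, 0 and 3 in shy2-2 and 0, 0 and 1 in slr-1; the numbers pair the samples only in shy2-2 at 4 h. Of 689 values for named genes, 641 kept direction and call, 35 lost the call, 12 gained it and 1 reversed. Genes under about 1 CPM at 4 h rest on few counts, so the size of the deepest falls is limited by depth.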
